A study of Homo sapiens with 2 samples.

Results

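A set of 10 genes that mark and maintain human pluripotent stem cells in the primed state was followed across a pair of substates of H9 cells. The genes were POU5F1, NANOG, SOX2, LIN28A, LIN28B, L1TD1, UTF1, DPPA4, SALL4 and ZFP42. They were chosen by name, and their probes were found through the RefSeq accession that the array design gives each non-control probe. Of the 10 genes, 9 had a probe, which made 10 probes in all because POU5F1 had 2, out of 22439 genes with a named probe. No probe matched ZFP42, which was not analysed here. All 10 probes were flagged as well above background on both arrays, and none was saturated.

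H9 is an established human embryonic stem cell line. The study grew H9 cells without feeder cells in the defined medium TeSR-E8, first on vitronectin. At passage 35 cells were moved to Matrigel, a basement membrane extract, on which the study described both substates. Substate 1 was sampled at passage 35 and substate 2 at passage 50, with 1 array each. Substate, passage and time on Matrigel therefore cannot be told apart. The study called substate 2 ectoderm-biased and told it from substate 1 by higher vimentin and lower staining for a keratan sulphate epitope, and how the cells for the arrays were separated is not given in the sources used here.

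Pluripotent cells can form all the germ layers, and the state is held by a small circuit of transcription factors. OCT4 (the product of POU5F1), SOX2 and NANOG bind many of the same regulatory regions, their own among them, and OCT4 and SOX2 often bind side by side on a composite DNA element. Around this circuit stand the RNA-binding LIN28 proteins, which block maturation of let-7 microRNAs, and further factors that are switched off when human embryonic stem cells differentiate. The primed state is the form in which human embryonic stem cells usually grow, and it resembles the epiblast around implantation.

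None of the core genes differed strongly between the substates. Of the 9 measured genes, 8 had a higher normalised signal in substate 2 and SALL4 had a slightly lower one, with differences from -0.03 for SALL4 to 0.42 for NANOG on the log2 scale, whereas relative to GAPDH all 9 were lower. The median was 0.19, or 1.14-fold higher in substate 2, beside a median of 0.08 over the 16001 genes measured on both arrays. With 1 array per substate the design allows no test and no p-value, and each difference compares these 2 arrays only. In RNA from many cells together, fewer cells of a type and less RNA per cell cannot be told apart.

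Values are given as the processed signal, which is the scanner intensity after background subtraction, and as a normalised log2 signal, from which the 75th percentile of the array had been subtracted. That percentile was 313.7 in substate 1 and 275.4 in substate 2, and the share of the 60901 non-control spots that stood well above background was 57.4% and 54.7%. Probes differ in how strongly they hybridise, so levels were compared between arrays and not between genes. Each member probe was printed once per array. A pair of errors was available. The SD of a difference between single spots was 0.069 on the log2 scale, from 291 probes printed 10 times. The larger error, which the scanner software assigns to each signal, came to 0.20 for the difference of each member probe. It ran only from 0.20403 to 0.20406 over these probes, a near-constant and not a spread measured between their spots. Neither error covers the cells, the RNA or the labelling.

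Cultures on both arrays carried the general markers of human pluripotent stem cells. All 7 matched marker genes outside the core set were well above background on both arrays, among them DNMT3B, the de novo DNA methyltransferase, and PODXL, the carrier of surface epitopes used to stain stem cells. Of 8 mesendoderm markers, 2 were above background in substate 1, FOXA2 and GATA4, and 1 in substate 2, FOXA2. GATA4 was counted in substate 1 from a dim probe at 17.7, while its other probes, at 3.12 and 6.87, were near background. EOMES, GATA6, GSC, MIXL1, SOX17 and TBXT were near background on both arrays. Of 7 trophoblast and amnion-like markers, 2 were above background on each array, and KRT7 was among them on both. Of 10 neural ectoderm markers, 4 were above background in substate 1 and 6 in substate 2, while PAX6, SIX3 and ZIC1 were among those near background on both. Those above background in substate 2 only were SOX1, at 21.7, and HES5, at 24.1. Both lay under the brightest negative control spot of that array, 33.5.

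The transcription factor circuit came first. POU5F1, on chromosome 6, encodes the POU-domain factor OCT4, without which the pluripotent state is lost. Its brighter probe read 168160 in substate 1 and 181073 in substate 2, or 9.07 and 9.36 as normalised log2 signals, a difference of 0.29. Its dimmer probe read 32209.9 and 33390.2, or 6.68 and 6.92, a difference of 0.24. Both probes were therefore a little higher in substate 2, and they lay 0.05 apart, within the spot noise. The mean difference over both probes was 0.27.

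SOX2, on chromosome 3, encodes the HMG-box partner of OCT4, which is also kept on in neural progenitors. Its probe read 18125.2 in substate 1 and 19014 in substate 2, or 5.85 and 6.11 as normalised log2 signals. The difference of 0.26 was close to that of POU5F1. NANOG, on chromosome 12, encodes a homeodomain factor that is itself a target of OCT4 and SOX2 and that steadies self-renewal. Its probe read 11911.1 and 13991.1, or 5.25 and 5.67 as normalised log2 signals. This was the largest difference among the core genes, 0.42 or 1.34-fold, and it was 2.06 times its scanner error. Substate 2 was the higher array for all 3 factors, except relative to GAPDH.

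**Figure D1:**
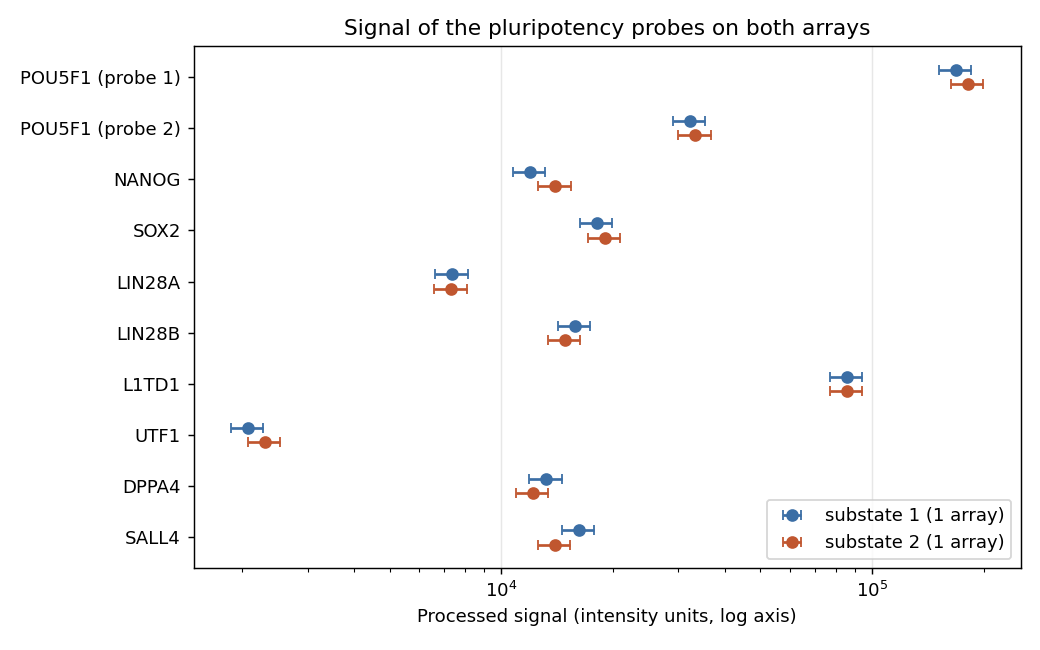
Processed signal of the 10 probes of the core pluripotency genes (x axis, intensity units on a log axis) on the substate 1 array (blue) and the substate 2 array (red), with the error of each signal from the scanner software as bars. The bars of the 2 arrays overlap for every probe, and the signal is higher in substate 2 for 5 probes and lower for 5 before scaling.

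Because OCT4 and SOX2 are known to act on the genes of this circuit, the RefSeq promoters of the members (GRCh38.p14, 250 bases before to 50 bases after the start of transcription) were searched on both strands for the octamer core ATGCAAA, for the SOX element CATTGT, and for a composite of the SOX element and the octamer core with any 1 base between them, whose matches are also counted under its 2 parts. Of 35116 promoters, 4.46% held the octamer core, 10.8% the SOX element and 0.00854%, which is 3 promoters, the composite. The promoter table held entries for NANOG, SOX2, LIN28B, L1TD1, UTF1, DPPA4 and ZFP42. NANOG was one of the 3 with the composite, which lay on the reverse strand at positions -120 to -107 from the start. SOX2 held the octamer core at -100 to -94, and 1 of the 2 LIN28B promoters held the SOX element on the reverse strand at -140 to -135. In the other members' windows these letters were not found. The stretches that hold a match are shown so that the letters can be read in their context. They are on the plus strand, with the match in capitals: NANOG at chr12:7789152-7789401, SOX2 at chr3:181711675-181711924 and LIN28B at chr6:104940797-104940856.
NANOG: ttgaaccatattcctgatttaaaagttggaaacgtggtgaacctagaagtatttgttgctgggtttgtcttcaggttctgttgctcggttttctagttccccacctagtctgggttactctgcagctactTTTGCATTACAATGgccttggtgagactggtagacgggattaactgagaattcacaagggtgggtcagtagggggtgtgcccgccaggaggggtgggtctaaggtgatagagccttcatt
SOX2: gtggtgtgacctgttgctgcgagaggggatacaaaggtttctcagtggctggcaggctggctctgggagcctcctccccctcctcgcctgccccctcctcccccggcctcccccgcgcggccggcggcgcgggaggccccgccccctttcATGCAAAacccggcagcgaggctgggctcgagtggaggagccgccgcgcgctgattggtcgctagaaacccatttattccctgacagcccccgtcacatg
LIN28B: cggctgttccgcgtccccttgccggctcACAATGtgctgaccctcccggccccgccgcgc
A match is a description of the letters and not of binding, which these arrays do not measure. NANOG and SOX2, with a match to the octamer core, differed by 0.42 and 0.26 on the log2 scale, and LIN28B, with the SOX element alone, by 0.10. UTF1, L1TD1 and DPPA4, with no match, differed by 0.34, 0.19 and 0.07. With so few genes, a link between the matches and the differences was not tested. The promoters also differed in base composition. The windows of NANOG and DPPA4 were 46.7% and 45.3% G and C with 5 CpG dinucleotides each, and those of UTF1 and SOX2 were 71.7% and 63.3% with 39 and 20, beside a median of 58.7% and 14 over all promoters.

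The RNA-binding members came next. LIN28A, on chromosome 1, and LIN28B, on chromosome 6, are paralogues that bind the let-7 precursor and keep it from being processed. The LIN28A probe read 7366.13 in substate 1 and 7329.58 in substate 2, or 4.55 and 4.73 as normalised log2 signals, a difference of 0.18. The LIN28B probe read 15780.9 and 14829.6, or 5.65 and 5.75, a difference of 0.10. The processed signals of both were thus slightly lower in substate 2, and their normalised signals were slightly higher, each by less than the scanner error. L1TD1, on chromosome 1, encodes an RNA-binding protein derived from a LINE-1 element that is found together with LIN28. Its probe read 85370.4 and 85364.9, the closest pair of signals in the set, or 8.09 and 8.28 after normalisation, a difference of 0.19.

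The let-7 family that LIN28 proteins hold back shares 1 seed, bases 2 to 8 of the mature strand, given in capitals in 3 of the 9 RefSeq members below. They are shown because the targets counted further on are recognised through that seed. Mature microRNAs are not measured by these arrays.
hsa-let-7a-5p: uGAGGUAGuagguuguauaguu
hsa-let-7g-5p: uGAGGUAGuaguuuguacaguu
hsa-miR-98-5p: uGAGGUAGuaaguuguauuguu

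The remaining members are markers and chromatin factors of the pluripotent state. UTF1, on chromosome 10, encodes a chromatin-bound factor expressed in embryonic stem cells and is a known target of OCT4 and SOX2. Its probe read 2072.06 in substate 1 and 2301.38 in substate 2, or 2.72 and 3.06 as normalised log2 signals. The difference of 0.34, or 1.27-fold, was next to that of NANOG. DPPA4, on chromosome 3, encodes a chromatin protein that works with its relative DPPA2. Its probe read 13216 and 12171.3, or 5.40 and 5.47, a difference of 0.07. SALL4, on chromosome 20, encodes a zinc finger factor that binds the same regulatory regions as OCT4 and recruits the NuRD deacetylase complex. Its probe read 16176.6 and 13930.3, or 5.69 and 5.66. SALL4 thus had the largest change to a lower processed signal, -13.9%, and the only negative normalised difference, -0.03, which was well within both errors.

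Set in order, the differences ran from NANOG (0.42) through UTF1 (0.34), POU5F1 (0.27), SOX2 (0.26), L1TD1 (0.19), LIN28A (0.18), LIN28B (0.10) and DPPA4 (0.07) to SALL4 (-0.03). Neighbours in this order lay closer together than the scanner error of 0.20. The order was not kept under all processing: with normexp background correction L1TD1, at 0.31, came before POU5F1 at 0.26 and SOX2 at 0.25.

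By the rules of size, none of the core genes stood out. The study's rule was a Z-score, the distance of a probe's difference from the mean of all probes in units of their SD, with limits at 2 that here lay at 1.34 and -1.19 on the log2 scale. None of the 10 member probes passed it, beside 6.33% of all 58201 probes and 0.977% of the 29883 probes measured on both arrays. The Z-scores ran from -0.16 for SALL4 to 0.55 for NANOG. None of the 9 genes differed by 2-fold or more, beside 2% of the genes measured on both arrays. Above the median of all measured genes, where 50% lie, were 7 of 9, and 8 of 9 lay above 0, beside 59.8%. Inside the middle 50% of all measured genes, which spanned -0.16 to 0.28, lay 7 of 9, with NANOG and UTF1 above it at 0.42 and 0.34.

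The differences were also set against the errors. Of the 10 probes 5, namely NANOG, UTF1, SOX2 and both POU5F1 probes, lay more than 2 times the spot noise from the median of the measured probes, beside 70% of all measured probes. The same number exceeded the scanner error of their difference, beside 54.2%. Only 1 of 10, that of NANOG, exceeded 2 times that error, beside 20.1%. These shares describe 10 probes that were chosen by name, and most of them were bright.

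**Figure D2:**
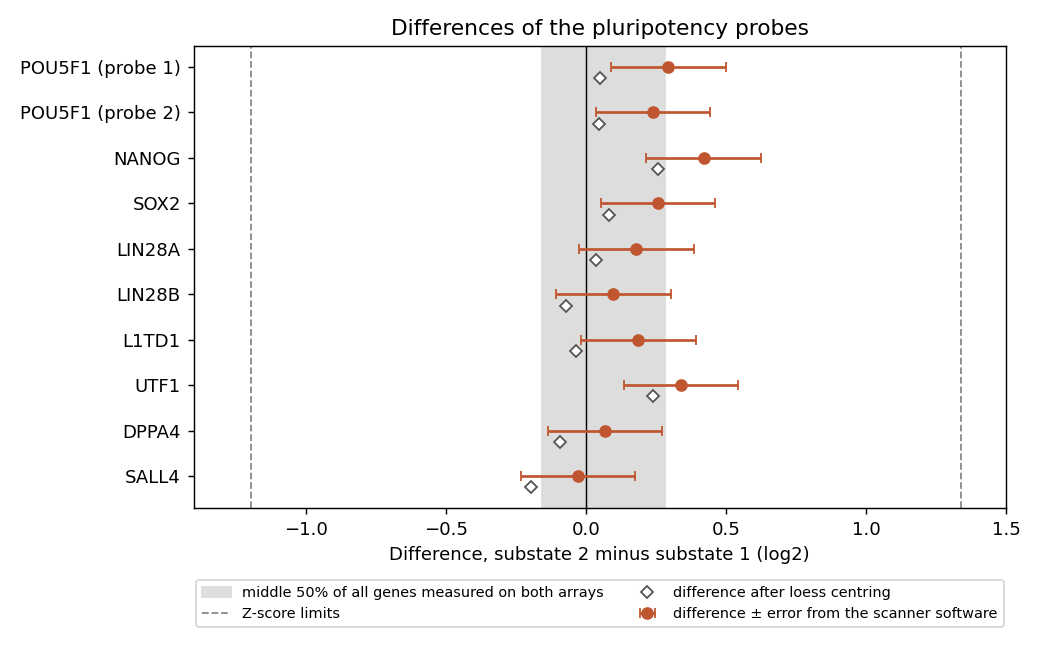
Difference of each member probe, substate 2 minus substate 1, on the log2 scale (x axis), with the error from the scanner software as bars; the open diamonds give the difference after loess centring on signal, the grey band the middle 50% of all genes measured on both arrays, and the dashed lines the Z-score limits at -1.19 and 1.34. Every probe lies far inside the limits, and the diamonds lie to the left of the points, between -0.19 for SALL4 and 0.26 for NANOG.

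Where the probes sat on the scale of signal moved with their differences. Among the probes measured on both arrays, the median difference was 0.05 in the dimmest decile, -0.06 in the next and 0.21 in the brightest decile, which held 9 of the 10 member probes, and 0.14 in the next brightest, which held that of UTF1. In the brightest decile the middle 50% of differences spanned 0.03 to 0.32. The median of the core genes, 0.19, was thus close to the median of equally bright probes. After a loess fit of the difference on signal had been subtracted, NANOG remained at 0.26 and UTF1 at 0.24, and SOX2 was at 0.08. Both POU5F1 probes were then at 0.05 and LIN28A at 0.04, while L1TD1 was at -0.03, LIN28B at -0.07, DPPA4 at -0.09 and SALL4 at -0.19. The median of the core genes was then 0.04, beside 0.03 over all measured genes.

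**Figure D3:**
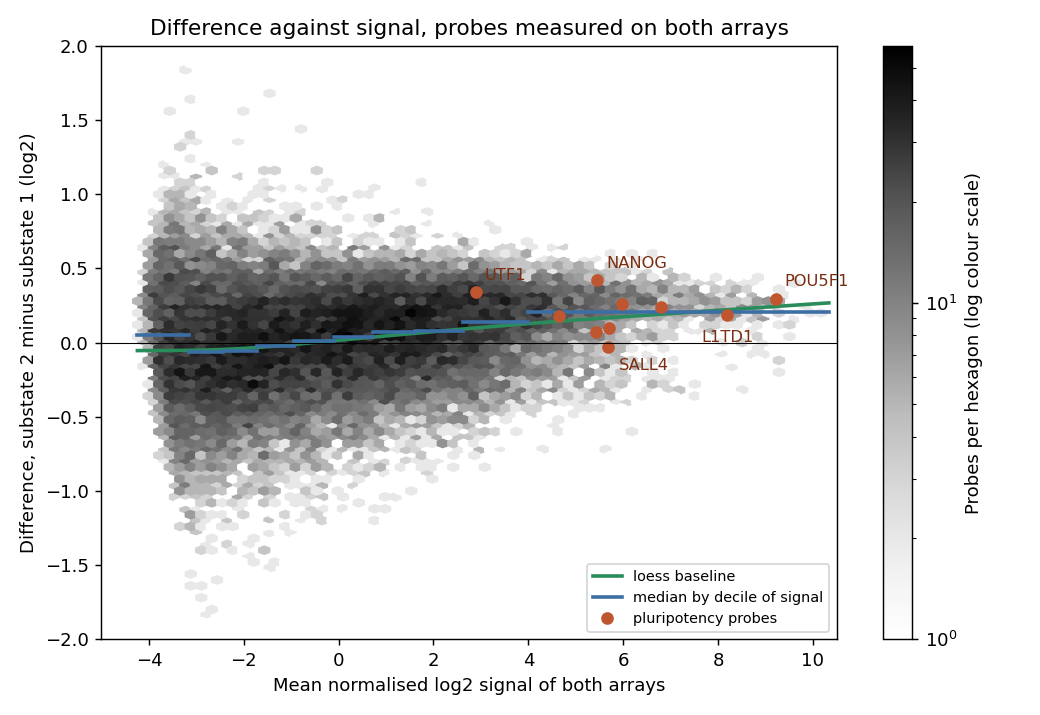
Difference between the substates (y axis, log2, substate 2 minus substate 1) against the mean normalised log2 signal of both arrays (x axis) for the probes measured on both arrays, shaded by their number, with probes beyond a difference of 2 not drawn; red points are the member probes, blue lines the median of each decile of signal and the green line the loess baseline. The baseline rises over most of the range of signal, the member probes lie in the brightest 2 deciles around it, and NANOG and UTF1 lie above it.

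The direction of the smaller differences depended on what the arrays were centred on. Before scaling, the processed signal was higher in substate 2 for 5 probes, by 3.66% and 7.68% for POU5F1, 4.90% for SOX2, 11.1% for UTF1 and 17.5% for NANOG. It was lower for the other 5, from -0.0064% for L1TD1 and -0.496% for LIN28A to -13.9% for SALL4. GAPDH, the glycolytic gene on which the study scaled its PCR, was itself 0.45 higher in substate 2, and 12 of 16 housekeeping genes were higher, with a median of 0.24. Relative to GAPDH all 9 core genes were lower in substate 2, between -0.48 for SALL4 and -0.03 for NANOG. Relative to the mean of the housekeeping genes 6 of 9 were higher, and after quantile normalisation and loess centring 5 of 9 were. Centring on GAPDH moved the median of all genes by -0.45 and centring on the housekeeping genes by -0.17, shifts that are the same for every gene and leave each gene on its side of the median. Quantile normalisation, loess centring and normexp correction are not such shifts, and under them too NANOG, UTF1, POU5F1 and SOX2 lay above the median of all genes.

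**Figure D4:**
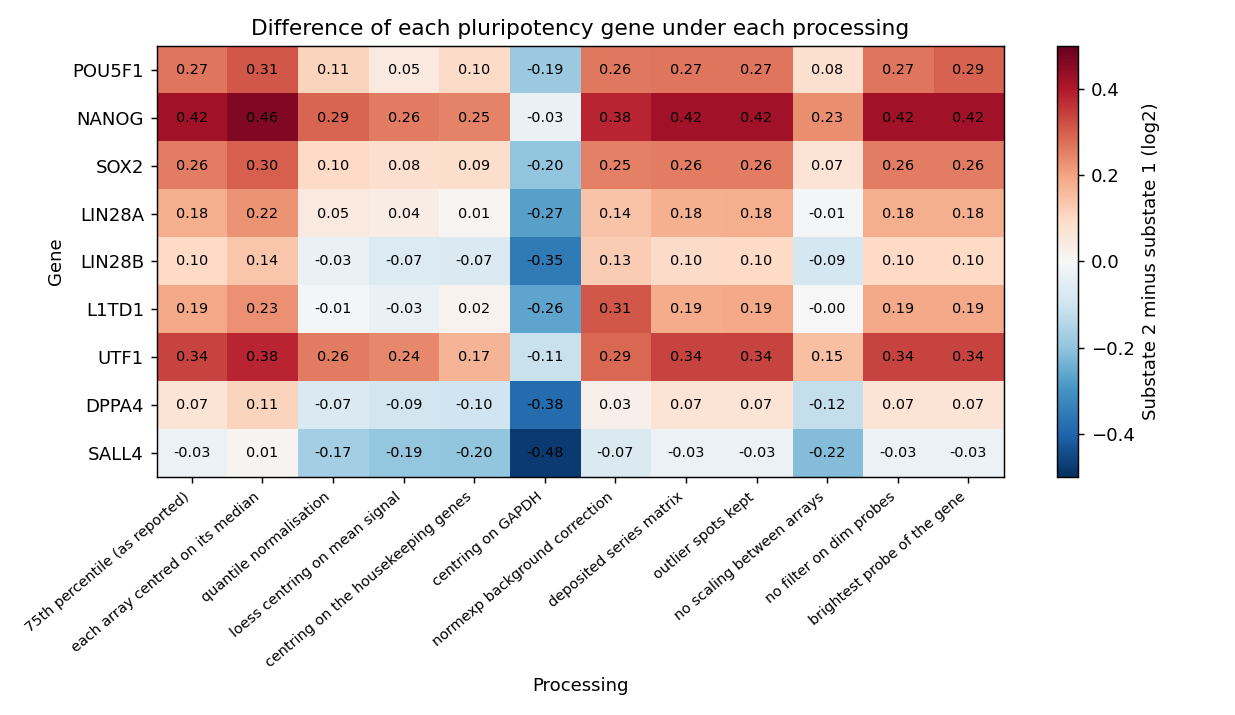
Difference of each core gene (rows), substate 2 minus substate 1 on the log2 scale, under each processing (columns); red is higher and blue lower in substate 2, and the cells print the values. NANOG has the highest value in every column, from -0.03 relative to GAPDH to 0.46 after centring on the array median, and SALL4 the lowest.

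Other genes of the primed state lay on both sides of 0, in shares near those of all genes. Of 33 listed genes outside the core set 32 were measured, 18 higher and 14 lower in substate 2, beside 59.8% of all measured genes higher, and 15 lay above the median of all genes. Their median was 0.04 beside 0.08 over all genes, and none differed by 2-fold, beside 2% of all genes. At the upper end were LEFTY2, an inhibitor of Nodal signalling and a target of the circuit, with a mean of 0.47 over 2 probes, and SOX11, a SOX factor of early neural cells, at 0.45. LEFTY1, the sister gene of LEFTY2, was at 0.43. At the lower end were GAL, the neuropeptide galanin, which is abundant in human embryonic stem cells, at -0.87 (1.83-fold lower), and DPPA2, the partner of DPPA4, at -0.65 (1.57-fold lower). NODAL, the ligand that sustains primed cells, was at -0.43. Among the markers used to check the cell type, PODXL was at -0.35, CD9 at -0.30, GDF3 at -0.28 and TERF1 at -0.20 over 5 probes, whereas DNMT3B was at 0.20 and PRDM14 at 0.32. Before scaling, the brightest probes of the 7 marker genes summed to 198580 in substate 1 and 152544 in substate 2. PODXL alone gave 114240 and 78890 of these sums, whereas DNMT3B gave 35990 and 36267. The part of these sums in the core differences was not tested.

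DPPA2 and DPPA4 lie next to each other on chromosome 3 with no gene between them in RefSeq. The DPPA2 probe read 491 in substate 1 and 275 in substate 2, and its difference of -0.65 stood beside 0.07 for DPPA4, so the partners differed by more than their errors of 0.20 each. SOX2 overlaps the noncoding gene SOX2-OT, of whose 4 probes the 2 above background were at 0.40 and 0.54, both above the 0.26 of SOX2. LIN28B overlaps LIN28B-AS1, whose probes were at -0.14 and -0.00.

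Partners and targets of LIN28 were counted as a second list. All 28 genes were measured, 22 higher and 6 lower in substate 2, and 18 lay above the median of all genes, beside 59.8% and 50% of all measured genes. Their median was 0.15, or -0.30 relative to GAPDH and -0.02 relative to the housekeeping genes, and none passed 2-fold, beside 2% of all genes. The lowest were TUT7 at -0.50 and TUT4 at -0.40, the terminal uridylyltransferases that tail the let-7 precursor once LIN28 is bound. Both lay further from 0 than LIN28A and LIN28B. The highest were CCND1, which encodes cyclin D1, at 0.52, and PLAGL2, a zinc finger factor, at 0.43. Classical let-7 targets lay between, with HMGA2 at 0.15, IGF2BP1 at 0.24, NRAS at 0.32 and IGF1R at -0.35. The 4 probes of DIS3L2, the nuclease that degrades the tailed precursor, ran from -0.38 to 0.57 and did not share a direction.

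Of the chromatin cofactors of the core factors all 30 were measured, 27 higher and 3 lower in substate 2, beside 59.8% of all measured genes higher, and 24 of 30 lay above the median of all genes. Their median was 0.27 beside 0.08 over all genes, and it was -0.18 relative to GAPDH, which moved all genes alike. None passed 2-fold, beside 2% of all genes. The highest were CETN2, a subunit of the XPC complex that coactivates OCT4 and SOX2, at 0.65, and CHD3, a NuRD remodeller, at 0.59. The lowest were WDR5, a subunit of histone H3K4 methyltransferase complexes, at -0.07 and the acetyltransferase EP300 at -0.04. The other XPC subunits, XPC and RAD23B, were at 0.40 and 0.28. Among the NuRD subunits that SALL4 recruits, MTA2 was at 0.48, RBBP4 at 0.30, CHD4 at 0.15 and HDAC1 at 0.06.

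Of 30 upstream and partner transcription factors 23 were measured on both arrays, 18 higher and 5 lower, beside 59.8% of all measured genes higher. Above the median of all genes, where 50% lie, were 15 of them. Their median was 0.14, beside 0.08 over all genes. Past 2-fold was 1 of 23, beside 2% of all genes. It was NR5A2, a nuclear receptor that can bind the POU5F1 promoter, whose dim probe read 85.9 in substate 1 and 157 in substate 2, a difference of 1.06. Its other probe went the other way, being above background in substate 1 only and at least 1.23-fold lower in substate 2. ETV5, an ETS factor downstream of FGF signalling, was at 0.56. MYC was lowest at -0.40, and TFCP2L1, a factor of the naive state, was at -0.35. The orphan receptors NR2F1 and NR2F2, which are known to repress POU5F1 and to rise on neural differentiation, were above background in substate 2 only. A fold written as at least a value sets the brighter signal against the lowest signal well above background on the other array, or against the dim probe itself where that was higher. NR2F1 read 11.2 and 100.4 and was at least 7.91-fold higher, and NR2F2 read 3.62 and 31.9 and was at least 2.51-fold higher. The signal of NR2F2 in substate 2 lay under the brightest of 308 negative control spots on that array, 33.5, whose median was 3.54. KLF4, a naive-state factor, was above background in substate 1 only, and ESRRB, KLF5 and TBX3 were near background on both arrays.

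Paralogues could matter where a probe does not tell family members apart, and they were listed for that reason. Of 32 paralogues and copies 17 were measured on both arrays, 12 higher and 5 lower, beside 59.8% of all measured genes higher. Above the median of all genes, where 50% lie, were 9 of them. Their median was 0.09, beside 0.08 over all genes, and none passed 2-fold, beside 2% of all genes. SALL3 was at 0.56, SALL1 at 0.49 and SALL2 at 0.26, each above SALL4 at -0.03. In the POU family the largest bound was that of POU3F2, a factor of neural progenitors, which was above background in substate 2 only. It read 14.9 in substate 1 and 174 in substate 2 and was at least 13.3-fold higher, whereas POU3F1 was at -0.14 and POU2F1 at 0.01. Among SOX2 relatives SOX3 was at 0.03. SOX1, a marker of neural progenitors, read 3.06 and 21.7 and was at least 1.71-fold higher. The signal of SOX1 in substate 2 lay under the brightest negative control spot of that array, 33.5. DPPA5 was above background in substate 1 only and read 23.8 and 16.2. It was 1.29-fold lower, a difference of -0.37 that lay within its scanner error of 0.47. No probe matched 6 listed genes, among them NANOGP8 and POU5F1P3, and whether their transcripts hybridise to the NANOG or POU5F1 probes was not tested.

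Markers of the lineages that such cells can enter were read on the same arrays. Of 18 neural ectoderm markers 9 were measured on both arrays, 8 of them higher in substate 2, beside 59.8% of all measured genes. Their median was 0.47, beside 0.08 over all genes. Past 2-fold were 3 of the 9, beside 2% of all genes. GBX2, a homeobox gene of the anterior hindbrain, read 303.7 and 2086, 7.82-fold higher in substate 2. LHX2, a LIM-homeobox gene of the forebrain and eye field, read 86.7 and 381 (5.01-fold), and MAP2, a neuronal microtubule protein, was 2.04-fold higher. Of the other measured markers NES was at 0.38, DCX at 0.40 and TUBB3 at 0.47, beside 0.42 for NANOG. EN2 was at 0.30, and DLK1 was at 0.92, the mean of probes at 1.69 and 0.15. POU3F1 was the 1 measured neural marker that was lower, at -0.14.

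The other lineages had few measured markers. Of 18 mesendoderm markers 6 were measured, 3 higher and 3 lower, beside 59.8% of all measured genes higher. Their median was 0.16, and they ran from -0.71 for KDR, a VEGF receptor, to 0.77 for FOXA2, a factor of endoderm and floor plate. MESP1 was at least 2.21-fold higher by a bound. Its signal in substate 2, 33.3, lay under the brightest negative control spot of that array, 33.5. Of 12 trophoblast and amnion-like markers 3 were measured, and TFAP2C, an AP-2 factor of trophoblast and the naive state, was 3.62-fold lower at -1.86. Its dim probe read 86.7 in substate 1 and 21.0 in substate 2, the latter under the same negative control spot. CGA was at least 2.12-fold higher from a dim probe, whose signal of 26.9 in substate 2 also lay under that negative control spot. Genes can stand in more than 1 of these lists, as SOX1, SOX3, SOX11, DPPA2, TRIM71, MYCN, CDC25A, POU3F1, POU3F2 and HAND1 do.

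**Figure D5:**
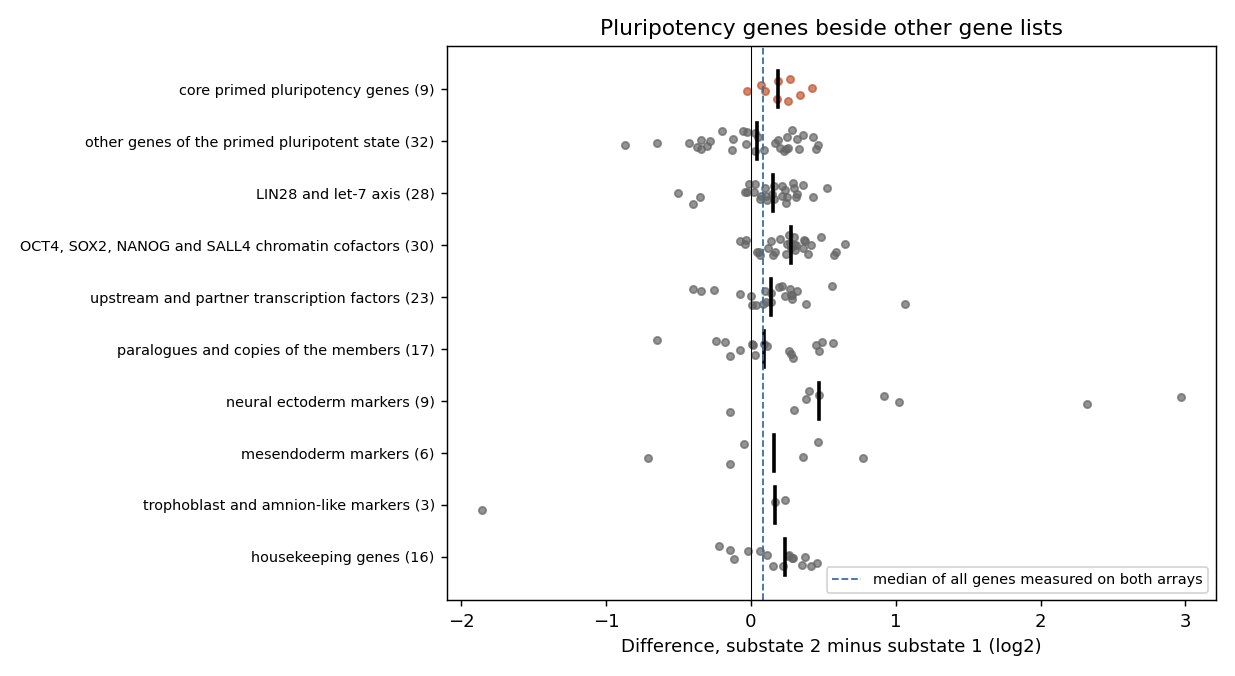
Differences, substate 2 minus substate 1 on the log2 scale (x axis), of the genes measured on both arrays in each list (y axis, number of genes in brackets), with the list median as a black bar and the median of all measured genes, 0.08, as a dashed line; the vertical scatter within a list has no meaning. The core genes, in red, lie between -0.03 and 0.42, inside the spread of the other genes of the primed state, and 3 neural ectoderm markers lie beyond 1.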

How the data were processed

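RNA of substate 1 and of substate 2 was hybridised to 1 single-colour array each (SurePrint G3 Human GE, Cy3 label). The authors deposited scanner output with an intensity per spot. Per the file headers, Feature Extraction 11.5.1.1 (protocol GE1_1105_Oct12) subtracted the background and flagged spots as well above background, saturated or outlying. The authors also deposited a matrix of log2 values, shifted per array by the 75th percentile in GeneSpring GX, and 100% of its values matched those computed here within 0.01 apart from a constant.

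Processed intensities under 1 were set to 1 (none occurred), outlier spots were dropped, log2 signals were averaged per probe, and the 75th percentile over the 58201 non-control probes was then taken off per array. Gene values are means over probes well above background on both arrays. A probe above background on 1 array has a bound: the brighter value against the lowest signal well above background on the dim array, or against the dim probe itself where higher. Of the probes, 31104 (53.4%) were named through RefSeq (GRCh38.p14), and probes with other accessions were not named here. The number of arrays limits the precision. Alternatives were other centrings, quantile, loess (limma 3.58.1, span 0.3) and normexp (offset 50), the deposited matrix, outlier spots kept, no filter on dim probes and the brightest probe; signals with no scaling were added after the data had been seen. The scripts (Python 3.11.15, R 4.3.3) were tested on simulated data.

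The members and gene lists were chosen with earlier results of these data known. Named from each list were genes past 2-fold and bounds of at least 2-fold. The 2 highest and the 2 lowest were named for the other primed genes, the LIN28 list, the chromatin cofactors, the upstream and partner factors and the neural markers. In the paralogue, mesendoderm, trophoblast and housekeeping lists these extremes were not all named. Further genes with a known role beside a member were chosen after their values were seen.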

Additional observations from a re-analysis of the deposited data

How the results depend on the processing

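No core probe passed the Z-score limits and no core gene 2-fold under any alternative run, and 5 to 7 of the 9 core genes lay above the median of all genes. Centring on GAPDH moved the median of the core genes from 0.19 to -0.26 and the list medians to -0.41 (other primed genes), -0.30 (LIN28 and let-7), -0.18 (chromatin cofactors), -0.31 (upstream and partner factors), -0.36 (paralogues), 0.016 (neural ectoderm), -0.30 (mesendoderm), -0.29 (trophoblast) and -0.21 (housekeeping), by construction of that centring. The probes beyond the spot noise were 3 in place of 5 under quantile normalisation and 3 under loess centring, 7 under normexp correction and 6 with the spot noise of probes of like signal, and the cause was not tested. With no scaling, an alternative added after the data had been seen, the median of the core genes was -9.28e-05. No paired analysis was possible because there was 1 array per substate, and no array could be left out. Gene names from the scanner files were not used as an alternative, and normexp used the median spot signal in place of the mean. Signal over background did not limit the core probes, whereas many lineage markers were near it.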

Other observations

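Precursors of let-7 are carried by host transcripts outside the lists, and their values were looked at because of the role of LIN28. MIR100HG, which hosts a let-7a gene, had 2 probes above background on both arrays, which read 21.6 and 54.7 in substate 1 and 89.9 and 74.6 in substate 2, differences of 2.25 and 0.64 on the log2 scale. Its remaining probe, and all probes of MIR99AHG and MIRLET7BHG, which host other let-7 genes, were near background on both arrays. Host transcripts do not give the level of the mature microRNA, and the hosts were chosen with results of these data known.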
